A study of Mus musculus with 16 samples.

Results

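EZH2 peaks were compared between mouse macrophages given lipopolysaccharide (LPS) and then nigericin and macrophages left untreated. The members are all EZH2 peaks on chromosomes 1 to 19 and X, 14635 of the 367397 peaks that the 9 lists of the series hold on these chromosomes. The list from nigericin-treated cells gave 5054 of them and the list from untreated cells gave 9581. A peak was called kept when it shared at least 1 bp with a peak of the other list, and otherwise nigericin-only or untreated-only. The 4 classes are 3287 nigericin-only peaks, 1767 kept peaks of the nigericin list, 1589 kept peaks of the untreated list and 7992 untreated-only peaks. The 2 counts of kept peaks differ because 268 untreated peaks met 2 or more nigericin peaks, up to 5, and 132 nigericin peaks met 2 or more untreated peaks.

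Both EZH2 libraries came from bone-marrow cells of wild-type C57BL/6 mice, grown for 5 days with M-CSF-conditioned medium into primary macrophages. The nigericin library came from cells primed with LPS, a bacterial Toll-like receptor 4 ligand, and then given nigericin, a potassium ionophore that triggers the NLRP3 inflammasome; the untreated library received neither agent. No library with LPS alone is used here, so an effect of LPS cannot be told apart from one of nigericin, and the labels state no doses or times. The series has 16 samples, 9 immunoprecipitations (EZH2, p53, H3K27ac, H3K27me3 and SIRT1, the last also in Ezh2 and p53 knockouts) and 7 inputs, with 1 library per group. With 1 library per side there is no test between the conditions, and every interval below covers counting error only.

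EZH2 is the catalytic subunit of Polycomb repressive complex 2 (PRC2), which methylates lysine 27 of histone H3. In differentiated cells the resulting H3K27me3 mark covers genes of other lineages, mostly developmental regulators with CpG-rich starts, and PRC2 spreads from such starts over neighbouring chromatin. H3K27ac, on the same lysine, marks active promoters and enhancers and excludes methylation of that histone tail. The H3K27me3 and H3K27ac lists of the series came from untreated wild-type macrophages only, so they describe the chromatin before any treatment. In those lists 12 of 12 macrophage markers (among them Csf1r, Adgre1 and Spi1) carried H3K27ac at a gene end and 0 carried H3K27me3. H3K27ac was present at 0 of 6 neutrophil, 1 of 8 lymphocyte (Cd79a), 0 of 5 erythroid and 0 of 6 stromal markers.

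The start regions under the strongest peaks of each class show the sequence context at issue, since CpG-rich starts are the classical PRC2 targets. For each class the 2 promoters with the highest fold are given, with that of Aoah added because its gene body, but not its start, held nigericin-only peaks. Each runs from 250 bases before to 50 after the start, 5′ to 3′ on the gene's strand, from RefSeq on GRCm38.p6, with CpG dinucleotides in capitals. The order is 2 nigericin-only starts (Ebf1, chr11:44619978-44620277, + strand; Trim30d, chr7:104507800-104508099, − strand), 2 kept starts (Cux2, chr5:122047776-122048075, −; Olig2, chr16:91225300-91225599, +), 2 untreated-only starts (Hdgfl3, chr7:81934410-81934709, −; H1f10, chr6:87981433-87981732, −) and Aoah (chr13:20793863-20794162, +).
Ebf1: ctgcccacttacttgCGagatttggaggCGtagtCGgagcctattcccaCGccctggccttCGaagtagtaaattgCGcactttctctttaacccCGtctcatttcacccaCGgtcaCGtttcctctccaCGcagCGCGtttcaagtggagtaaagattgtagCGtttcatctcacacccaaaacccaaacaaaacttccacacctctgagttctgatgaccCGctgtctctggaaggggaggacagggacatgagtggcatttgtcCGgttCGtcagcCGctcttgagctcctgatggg
Trim30d: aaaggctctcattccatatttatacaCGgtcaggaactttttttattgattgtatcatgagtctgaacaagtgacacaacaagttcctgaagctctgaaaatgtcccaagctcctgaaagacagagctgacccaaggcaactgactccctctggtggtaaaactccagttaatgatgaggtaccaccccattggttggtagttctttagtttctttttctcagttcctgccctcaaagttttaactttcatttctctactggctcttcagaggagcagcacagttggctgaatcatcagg
Cux2: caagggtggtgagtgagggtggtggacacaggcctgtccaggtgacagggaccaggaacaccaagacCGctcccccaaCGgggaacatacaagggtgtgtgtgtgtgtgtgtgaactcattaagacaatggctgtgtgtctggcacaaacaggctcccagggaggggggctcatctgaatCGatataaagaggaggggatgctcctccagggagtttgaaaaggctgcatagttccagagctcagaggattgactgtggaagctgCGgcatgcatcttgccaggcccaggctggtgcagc
Olig2: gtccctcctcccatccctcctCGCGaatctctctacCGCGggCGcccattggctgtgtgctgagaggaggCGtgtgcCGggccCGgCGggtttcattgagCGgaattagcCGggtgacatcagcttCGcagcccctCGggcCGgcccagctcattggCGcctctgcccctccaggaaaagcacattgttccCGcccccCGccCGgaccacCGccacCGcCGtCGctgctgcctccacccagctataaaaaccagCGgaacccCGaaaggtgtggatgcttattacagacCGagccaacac
Hdgfl3: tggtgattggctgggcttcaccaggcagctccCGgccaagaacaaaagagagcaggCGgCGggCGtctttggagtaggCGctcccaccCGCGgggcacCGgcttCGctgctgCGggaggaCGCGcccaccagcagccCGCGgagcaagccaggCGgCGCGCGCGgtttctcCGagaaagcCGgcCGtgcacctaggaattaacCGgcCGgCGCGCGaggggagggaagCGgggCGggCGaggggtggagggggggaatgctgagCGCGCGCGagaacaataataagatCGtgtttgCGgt
H1f10: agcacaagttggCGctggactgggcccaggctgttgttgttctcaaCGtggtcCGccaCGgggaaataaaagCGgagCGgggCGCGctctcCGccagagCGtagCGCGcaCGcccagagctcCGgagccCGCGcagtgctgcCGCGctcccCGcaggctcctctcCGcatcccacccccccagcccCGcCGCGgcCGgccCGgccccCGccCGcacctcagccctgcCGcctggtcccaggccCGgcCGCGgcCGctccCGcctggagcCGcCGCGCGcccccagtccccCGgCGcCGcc
Aoah: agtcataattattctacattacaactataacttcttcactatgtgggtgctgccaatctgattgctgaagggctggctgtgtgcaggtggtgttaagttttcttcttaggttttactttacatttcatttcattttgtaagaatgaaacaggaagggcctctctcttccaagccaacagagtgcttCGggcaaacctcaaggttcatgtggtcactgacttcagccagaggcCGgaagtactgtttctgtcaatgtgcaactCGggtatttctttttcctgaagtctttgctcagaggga

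Those 7 windows held 17 CpGs (Ebf1), 1 (Trim30d), 4 (Cux2), 25 (Olig2), 36 (Hdgfl3), 40 (H1f10) and 3 (Aoah). Over all starts under a peak, the median was 10 CpGs per 300 bases for nigericin-only peaks (110 promoters), 19 for kept peaks of the nigericin list (286) and 20 for untreated-only peaks (508), against 7 over all 32619 promoters in the table. In the nigericin-only class the 21 promoters outside H3K27me3 had a median of 3 and the 89 inside it a median of 12. In the untreated-only class the 50 promoters outside the mark had a median of 4 and the 458 inside it a median of 21. Low counts outside the mark were thus common to both classes. Chromosome 18 has no promoter in the table.

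Of the nigericin peaks, 1767 of 5054 were kept (34.96%, Wilson 95% interval 33.7 to 36.3%). Of the untreated peaks, 1589 of 9581 were kept (16.6%, 15.9 to 17.3%). Both lists reach down to 7 fragments at the summit with a median of 10, so most members are weak: 756 nigericin peaks (14.96%) and 1731 untreated peaks (18.1%) had a q-value of at most 0.05 in the authors' lists. The number of peaks in the nigericin list was 0.528 times that in the untreated list, and its modal background at a summit was 2.34 fragments against 2.74. No label or file header gives read totals, so a shorter list from fewer reads cannot be told apart from one due to the treatment.

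Whether a peak was kept followed its strength and the presence of H3K27me3. Among nigericin peaks of 7 to 8 fragments 4.69% were kept, of 11 to 12 fragments 38.2%, of 16 to 20 fragments 83.5% and of 21 to 30 fragments 93.9%. The same steps in the untreated list were 1.18%, 16.7%, 46.2% and 61.6%. Inside H3K27me3, 1639 of 2696 nigericin peaks (60.8%) and 1460 of 4053 untreated peaks (36.02%) were kept. Outside it, 128 of 2358 nigericin peaks (5.43%) and 129 of 5528 untreated peaks (2.33%) were kept. The gap was there at matched strength: at 13 to 15 fragments 68.2% of nigericin peaks were kept inside the mark and 24.1% outside, and 35.9% of untreated peaks inside and 11.1% outside. Above 30 fragments the share of nigericin peaks kept was 81.0%, below that of the step before, and outside the mark it was 12 of 23.

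**Figure D1:**
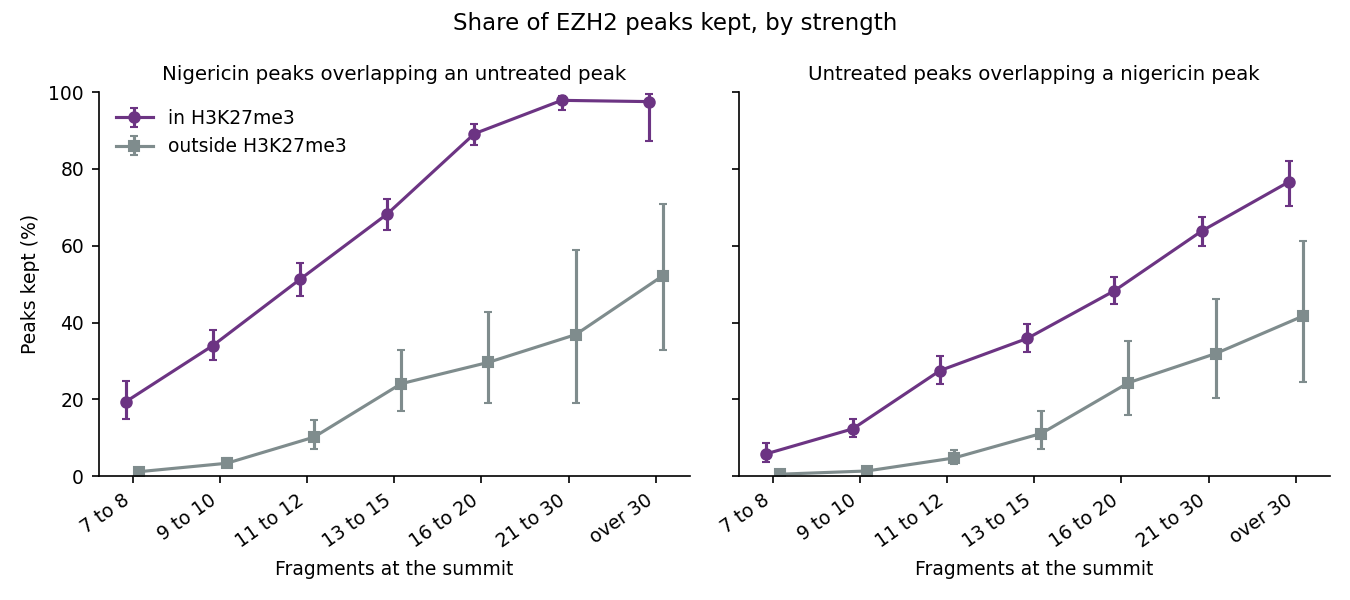
Percent of EZH2 peaks kept (y axis) against the number of fragments at the summit (x axis, steps), for nigericin peaks on the left and untreated peaks on the right; circles are peaks overlapping H3K27me3 of untreated cells, squares are the rest, and bars are Wilson 95% intervals. Circles lie above squares at every step in both panels, and reach 97.8% for nigericin peaks of 21 to 30 fragments against 63.8% for untreated peaks.

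Some peaks lay near a peak of the other list without touching it. Within 1 kb were 454 of 3287 nigericin-only peaks (13.8%) and 617 of 7992 untreated-only peaks (7.72%). The median gap to the other list was 51.7 kb and 174.1 kb in these classes. Counting a neighbour within 1 kb as kept, 43.9% of nigericin and 23.0% of untreated peaks were kept, and within 10 kb 55.4% and 33.5%. Peaks at the edge of the rule were few: 61 nigericin-only peaks (1.86%) and 70 untreated-only peaks (0.876%) had a peak of the other list within 100 bp, and 39 kept nigericin peaks shared under 50 bp. H3K27me3 domains put this on a larger scale. Of 1602 H3K27me3 peaks holding a nigericin EZH2 peak, 1138 (71.0%) also held an untreated one, which is 44.6% of the 2552 that held an untreated peak. Domains with both had a median width of 8136 bp, those with a nigericin peak alone 3440 bp, those with an untreated peak alone 3354 bp and those with neither 704 bp. Among nigericin-only peaks inside H3K27me3, 570 of 1057 (53.9%) lay in a domain that also held an untreated peak, and among untreated-only peaks inside it 978 of 2593 (37.7%) lay in a domain with a nigericin peak.

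Over all strengths, kept peaks lay at gene ends more often than peaks of a single list, an order that did not hold for the stronger untreated peaks. A summit within 1 kb of either end of a RefSeq gene was counted as a gene end, any other summit within gene bounds as gene body, and the rest as distal. The shares at gene ends, in gene bodies and in distal sequence were 14.5%, 45.4% and 40.1% for nigericin-only peaks. They were 43.1%, 40.6% and 16.4% for kept peaks of the nigericin list and 44.7%, 38.8% and 16.5% for those of the untreated list. Untreated-only peaks had 17.4%, 39.9% and 42.7%. Of the bases of the 20 chromosomes, 6.16% lie at gene ends, 43.5% in gene bodies and 50.4% in distal sequence. All classes taken whole thus exceeded the genome at gene ends, and nigericin-only peaks exceeded it slightly in gene bodies. Outside H3K27me3 the single-list classes were near the genome at gene ends, at 6.73% (5.76 to 7.84%) for nigericin-only and 6.63% (6.00 to 7.33%) for untreated-only peaks. Inside the mark these shares were 31.0% and 39.8%.

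**Figure D2:**
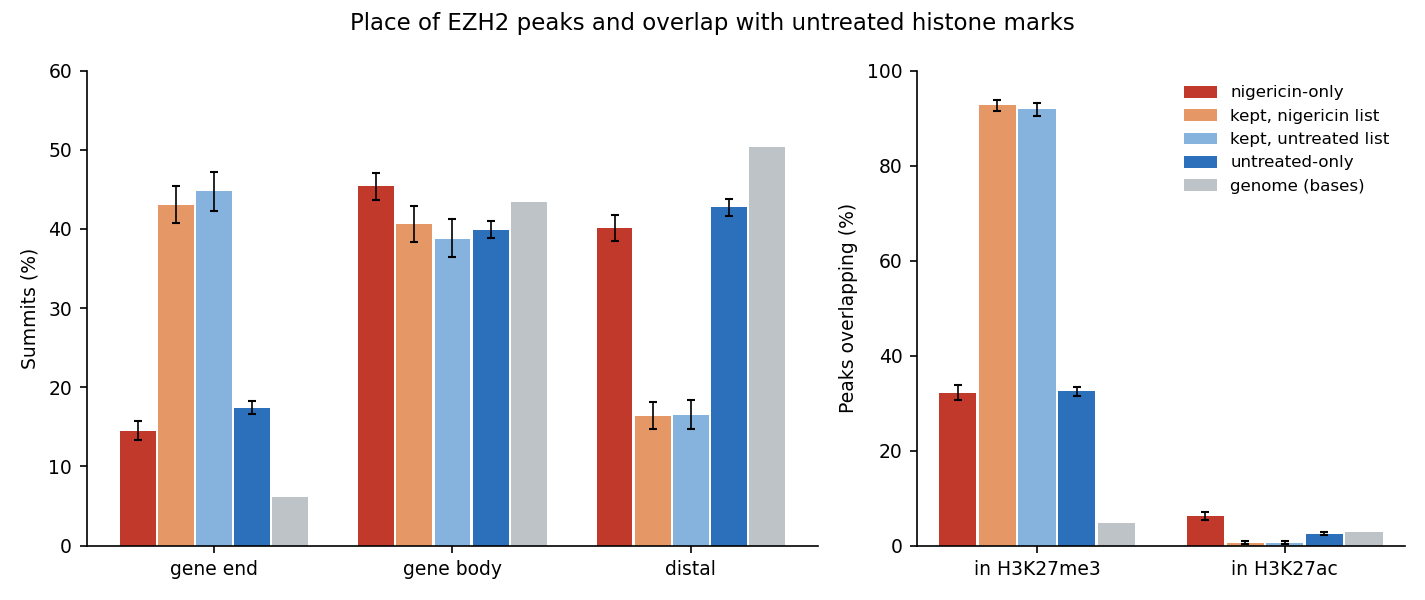
Left, percent of summits (y axis) at gene ends, in gene bodies and in distal sequence for the 4 classes of peak; right, percent of peaks overlapping H3K27me3 or H3K27ac of untreated cells. Bars are coloured by class, error bars are Wilson 95% intervals, and grey is the percent of genome bases; both kept classes stand at 43.1% and 44.7% at gene ends and above 90% in H3K27me3, and nigericin-only peaks have the highest H3K27ac share (6.18%).

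Because kept peaks were stronger (median 15 fragments in the nigericin list, against 9 in both single-list classes), the shares were also taken at 8 to 12 fragments only. There 32.4% of kept nigericin peaks lay at gene ends, against 13.4% of nigericin-only and 11.5% of untreated-only peaks. In the untreated list the order turned round above 12 fragments. At 13 to 15 fragments 38.3% of kept untreated and 40.8% of untreated-only peaks lay at gene ends, at 16 to 20 fragments 44.8% and 49.4%, and at 21 or more 56.8% and 63.7%. In the nigericin list kept peaks stayed above nigericin-only peaks in the same steps, with 39.8% of kept nigericin peaks (154 of 387) and 75 of 250 nigericin-only peaks, then 48.5% and 29.8%, then 57.6% and 12 of 30. Seen from the place, 61.4% of nigericin peaks at gene ends were kept, 32.5% in gene bodies and 18.0% in distal sequence, and 33.9%, 16.2% and 7.13% of untreated peaks. Where the strand is known, summits within 1 kb of a transcription start made up 7.38% of nigericin-only peaks, 29.7% of kept nigericin peaks, 31.7% of kept untreated peaks and 11.03% of untreated-only peaks. The median distance to the nearest start was 20.9 kb, 2.84 kb, 2.94 kb and 25.2 kb in the same order of classes.

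Kept peaks lay almost wholly inside H3K27me3, at 92.8% in the nigericin list and 91.9% in the untreated list. The single-list classes were alike at 32.2% (nigericin-only) and 32.4% (untreated-only), where 4.73% of genome bases carry the mark. Both shares were higher in stronger peaks up to 15 fragments and parted above that. Of nigericin-only peaks, 16.3% lay inside the mark at 7 to 8 fragments, 30.2% at 9 to 10, 53.8% at 11 to 12, 67.2% at 13 to 15, 59.6% at 16 to 20 and 7 of 30 (23.3%) at 21 or more. Of untreated-only peaks, 343 of 2859 did at 7 to 8 fragments, 24.6% at 9 to 10, 45.9% at 11 to 12, 75.3% at 13 to 15, 87.9% at 16 to 20 and 271 of 317 (85.5%) at 21 or more. At a −log10 q of 5 or more, 1 of 8 nigericin-only peaks and 65 of 67 untreated-only peaks overlapped H3K27me3. The 8 are at Samd9l, Gvin1, Gm4070 and the pseudogene Gm8979 near Gvin1, Pramel35, a cluster of 5S ribosomal RNA genes on chromosome 8, the 18S ribosomal RNA-related locus Rn18s-rs5 on chromosome 17 and a gene-free stretch of chromosome 5. Ribosomal RNA genes exist in many copies, and the peak at Rn18s-rs5 had 559 fragments for a fold of 1.37.

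Many developmental regulators held kept peaks. Among 112 developmental transcription factor genes, 80 (71.4%) held a kept nigericin peak in the gene or within 1 kb of it, where 3.75% of all 21627 protein-coding genes did. For kept untreated peaks the count was 81 genes, where 3.76% of protein-coding genes had one. For 39 Hox genes the count was 26 (66.7%), and for 66 developmental ligands and receptors 28 (42.4%). The strongest examples in the nigericin list were Gata4, a heart and endoderm factor, with a fold of 7.48 over local background (25 fragments, exact Poisson interval 16.2 to 36.9) against 4.95 in untreated cells (28 fragments), and Olig2, an oligodendrocyte factor, with 5.96 (30 fragments, 20.2 to 42.8) against 7.17 (41 fragments). Pax6, an eye and brain factor, had 5.79 against 4.69, and Bsx, a hypothalamic homeobox gene, 6.16 against 3.31. Cux2 had 6.11 against 5.35 and Lmx1b, a limb and midbrain factor, 5.79 against 3.24. The genes thus stood on both sides of equality, with Olig2 lower in nigericin-treated cells and the others named higher; they were chosen by their nigericin fold, which favours that order.

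Of the kept genes, 2 encode Polycomb proteins. Bmi1, a core subunit of PRC1, had a kept peak at its start of 6.18-fold (46 fragments) in nigericin-treated cells, against 7.31-fold (52 fragments) in untreated cells, and overlapped both H3K27me3 and H3K27ac. Cbx8, a PRC1 reader of H3K27me3, had 4.47-fold (24 fragments) against 5.66-fold (33 fragments). Of 34 Polycomb genes, 2 (5.88%) had nigericin-only, 2 (5.88%) kept and 3 (8.82%) untreated-only peaks, the last Epop, Cbx2 and Cbx7. Of all protein-coding genes 6.23%, 3.75% and 12.3% did, so the list as a whole stood near or below these shares in the single-list classes, and its kept share rests on 2 genes. Neither Ezh2 nor Trp53 held an EZH2 peak in either list.

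Nigericin-only peaks occurred at 39 of the 112 developmental transcription factor genes (34.8%), 12 of 39 Hox genes (30.8%) and 15 of 66 ligands and receptors (22.7%), where 6.23% of protein-coding genes had one. Most of these were not further genes, since 29 of the 39 factor genes and 10 of the 12 Hox genes also held a kept nigericin peak. Untreated-only peaks were at more genes of each list, 54 of 112 (48.2%), 15 of 39 (38.5%) and 25 of 66 (37.9%), where 12.3% of protein-coding genes had one. Among the nigericin-only peaks, Hoxb13 had 4.16-fold with 13 fragments and Pax8, a thyroid and kidney factor, 4.69-fold with 16. Gsx2, a forebrain factor, had 4.32-fold with 14 and Wnt1, a secreted patterning signal, 3.40-fold with 14. Ebf1, which specifies B cells, had 5.08-fold with 16 fragments over a start inside the gene, and Nova2, a neuronal splicing factor, 4.49-fold with 14. All 6 of these nigericin-only peaks lay in H3K27me3. They had at most 16 fragments.

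Outside H3K27me3, nigericin-only peaks lay more often than untreated-only peaks in genes that carry H3K27ac in untreated cells. Of 2230 nigericin-only peaks outside H3K27me3, 319 (14.3%, 12.9 to 15.8%) had the summit in a protein-coding gene with H3K27ac at an end. Of 5399 untreated-only peaks outside it, 349 did (6.46%, 5.84 to 7.15%), and 9.13% of genome bases lie in such genes. At 8 to 12 fragments the shares were 14.3% and 6.30%. Direct overlap with an H3K27ac peak followed the same order, 203 of 3287 nigericin-only peaks (6.18%, 5.40 to 7.05%) and 203 of 7992 untreated-only peaks (2.54%, 2.22 to 2.91%), with 0.509% of kept nigericin peaks. That excess lay in weak peaks: at 7 to 8 fragments 7.67% of nigericin-only and 3.04% of untreated-only peaks overlapped H3K27ac, whereas at 16 to 20 fragments 0 of 94 nigericin-only and 7 of 462 untreated-only peaks did, and at 21 or more 0 of 30 and 6 of 317. The comparison was chosen after the values were seen, and H3K27ac after nigericin is not analysed here.

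Most of these genes held a single nigericin-only peak, and a few held runs. Gvin1, Aoah and Trim30d held 11 nigericin-only peaks each, Nfkb1, Maml2 and Rnf213 held 4 each, and Samd9l, Herc6, Ifit1bl1 and Cbl 3 each. Of these 10 genes, Gvin1 alone held an untreated peak, of 2.41-fold. The other 2 genes with 3 or more, Sfi1 (4) and Zfp991 (3), held untreated peaks too, 6 and 2. In all, 246 of 5744 protein-coding genes with H3K27ac held a nigericin-only peak outside H3K27me3, 39 of them 2 or more and 12 of them 3 or more. Untreated-only peaks touched 298 of those genes, 32 with 2 or more and 6 with 3 or more. By gene, then, 4.28% of H3K27ac genes held a nigericin-only and 5.19% an untreated-only peak outside H3K27me3. The 2 classes differ in size, with 2230 and 5399 peaks outside the mark. Of all protein-coding genes, 6.23% and 12.3% held a peak of these classes, counted inside or outside the mark and up to 1 kb from the gene. The genes named in this paragraph were ranked by their count of peaks, after the values were seen.

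Gvin1 (chr7:106156535-106215340), a very large interferon-inducible GTPase, was covered by 12 nigericin peaks over 25916 bp. Its widest pair ran 9862 bp at 10.2-fold (36 fragments, 25.2 to 49.8) and 8661 bp at 7.78-fold (25 fragments, 16.2 to 36.9). The untreated list had 574 bp there, with 8 fragments. At the kept pair the interval on the untreated fragments was 3.45 to 15.8. Both intervals cover counting error only, and the pair is among those named for the highest ratios, so they make no test between the conditions. Nearby, the peak at chr7:106501912-106512499 in the non-coding locus Gm8995 had the highest fold of the nigericin list, 14.1 (46 fragments, 33.7 to 61.4), where the untreated list had peaks of 3.74-fold (13 fragments) and 2.67-fold (9 fragments). The peak at chr7:105894000-105902960 in Gm4070, for which RefSeq gives the synonym VLIG-1, had 10.4-fold (35 fragments) against 2.94-fold (10 fragments). Genes of this family have close copies, and how the authors treated reads matching several copies is not stated in the labels or file headers.

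Samd9l (chr6:3372257-3399571), an interferon-induced restriction factor, had the highest fold among nigericin-only peaks, 11.7 over 6611 bp (38 fragments, 26.9 to 52.2), with 2 weaker peaks of 2.99-fold. Trim30d, a member of an interferon-inducible tripartite-motif cluster, had peaks of 1.67-fold to 4.90-fold along its whole length, with 4.49-fold (14 fragments) at its start. Herc6, the enzyme that attaches the ubiquitin-like ISG15 in mice, had 5.18-fold (17 fragments) and 4.78-fold (15 fragments) on adjoining stretches. Aoah (chr13:20794103-21036617), the lipase that inactivates LPS, had 11 peaks of 2.09-fold to 4.97-fold between chr13:20850648 and chr13:20905136 in its gene body and none at its start. Nfkb1, which encodes the p105 and p50 NF-kB subunit, had 4 peaks, the strongest of 5.15-fold (17 fragments).

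**Figure D3:**
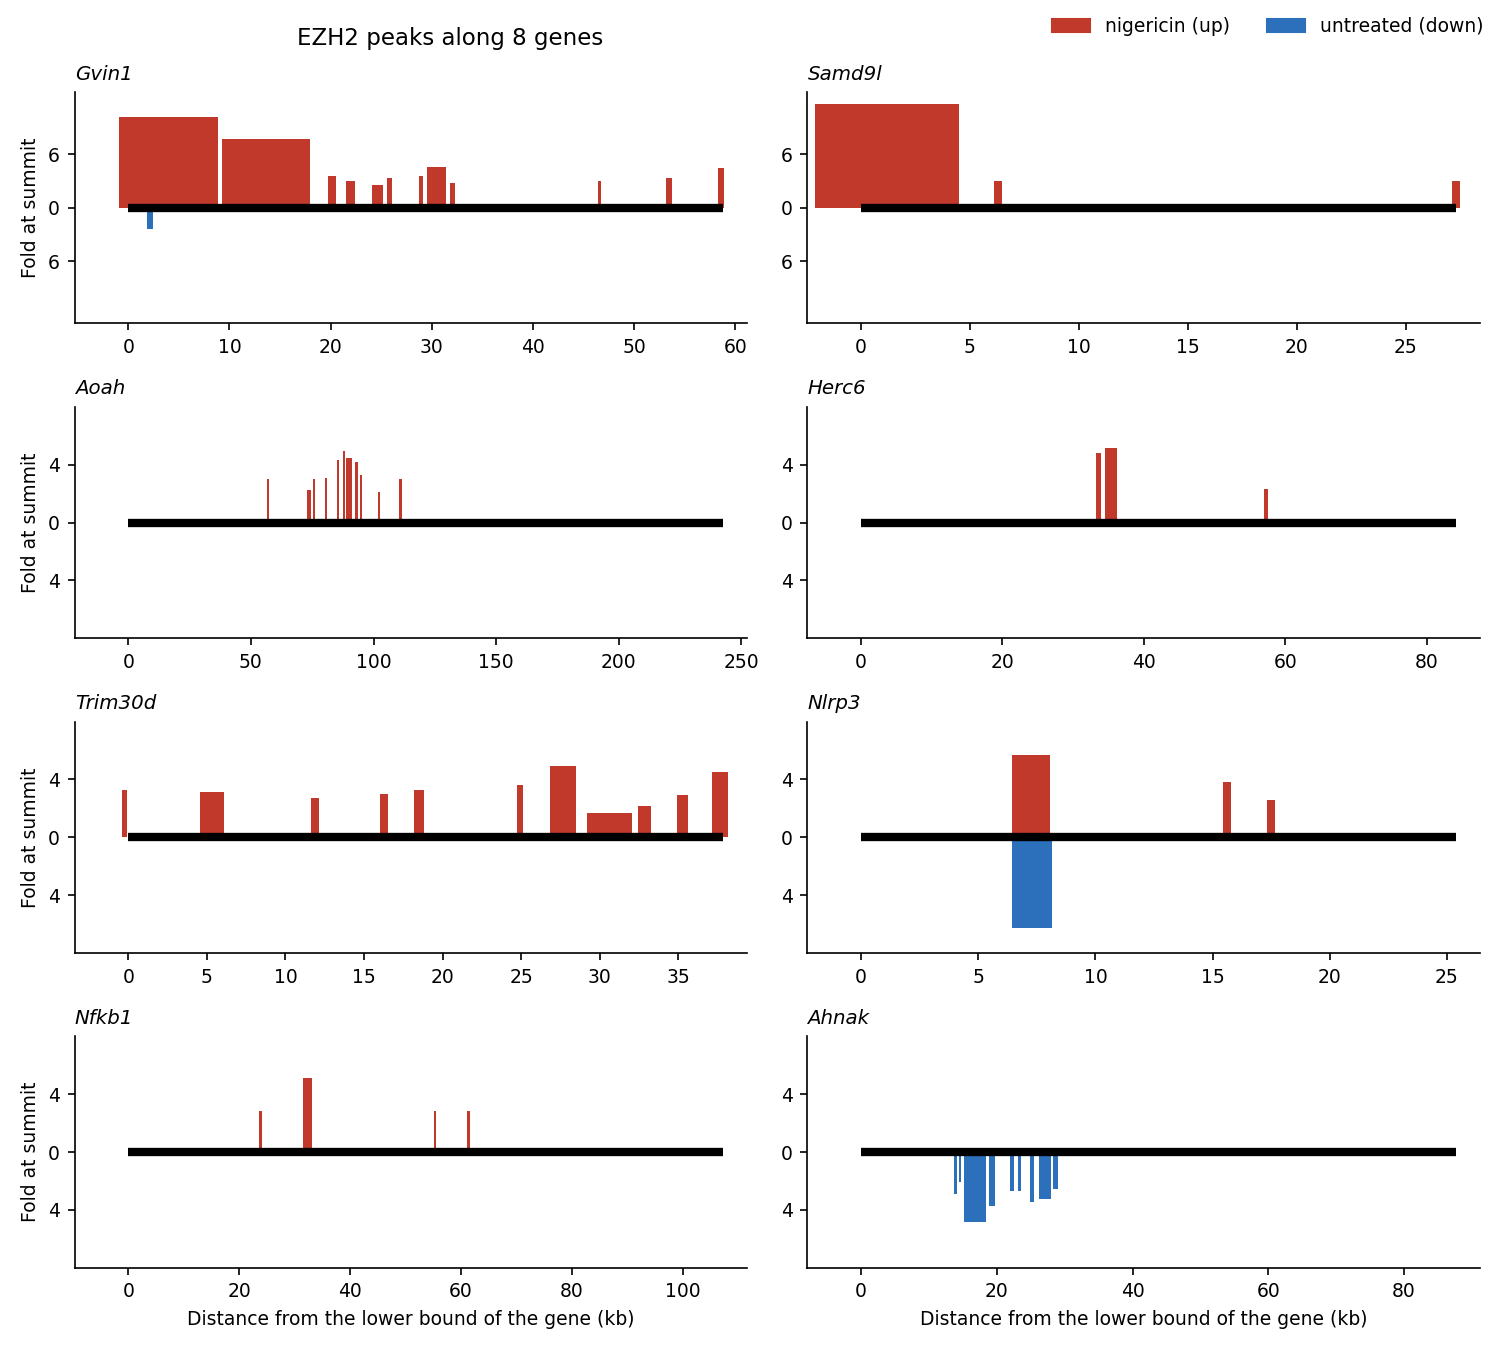
EZH2 peaks along 8 genes, as fold over local background at the summit (y axis) against distance in kb from the lower genome bound of the gene (x axis, black bar); red bars upward are nigericin peaks and blue bars downward are untreated peaks, each as wide as its peak or a small minimum. Nigericin peaks run along Gvin1, Trim30d and part of Aoah, Nlrp3 has a peak in both lists, and Ahnak has 9 untreated peaks and no nigericin peak.

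Interferon-inducible genes held nigericin-only peaks at a higher density than protein-coding genes at large. Of 82 such genes, 13 (15.9%) held a nigericin-only peak, 0 a kept peak and 3 (3.66%) an untreated-only peak, where 6.23%, 3.75% and 12.3% of protein-coding genes did. The nigericin-only peaks numbered 29, or 15.8 per Mb of gene against 1.51 over protein-coding genes, and the untreated-only peaks 1.64 per Mb against 3.48. A few genes with runs weigh on that density: Trim30d held 11 of the 29, and Samd9l, Herc6 and Ifit1bl1 held 3 each. The other nigericin-only peaks lay at Ifit1, Ifit2, Ifit3, Ifit3b, Mx2, Parp9, Parp14, Rsad2 and Trim34a, antiviral effector genes, at folds of at most 3.29. Peaks at Ifit1 and Ifit3b were counted for Ifit1bl1 too, since its bounds span both genes. The untreated-only peaks were at Ifi44 (2.67-fold), Aim2 (2.59-fold) and Eif2ak2 (2.41-fold). Before treatment 73 of the 82 genes carried H3K27ac and 6 carried H3K27me3. The list was chosen with earlier results of these data known.

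Among interferon-inducible GTPases 4 of 19 genes (21.1%) had nigericin-only peaks, namely Gvin1, Irgm1 (2 peaks, up to 3.29-fold), Gbp6 and Gbp8, and 2 (10.5%) had untreated-only peaks. Among NF-kB and LPS response genes 6 of 52 (11.5%) had nigericin-only and 3 (5.77%) untreated-only peaks. Of all protein-coding genes 6.23% and 12.3% did. In the NF-kB list the nigericin-only peaks numbered 11, of which 4 lay in Nfkb1. That is 12.2 per Mb against 1.51 over protein-coding genes, and for untreated-only peaks 3.32 against 3.48. The 6 genes with nigericin-only peaks were Nfkb1, Ccl4, a chemokine (2 peaks), Tnfaip3, which encodes the NF-kB inhibitor A20 (2 peaks), Il12b, Tnip3 and Edn1, all below 3-fold except Nfkb1. In the other direction Cd86, a co-stimulatory ligand, and Tlr4, the LPS receptor, had untreated-only peaks of 2.24-fold with 9 fragments each, and Edn1 had one of 2.65-fold. Macrophage identity genes had 2 of 36 in either single-list class and 0 kept, and inflammasome and pyroptosis genes 1 nigericin-only, 2 kept and 2 untreated-only of 35, which is near or below the background.

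Within the inflammasome list the kept peak at Nlrp3, the nigericin sensor, lay in the gene body at chr11:59548026-59549614 with 5.67-fold (24 fragments, 15.4 to 35.7), against 6.26-fold (40 fragments) in untreated cells. It overlapped H3K27ac and not H3K27me3. Farther along the gene the nigericin list had 2 more peaks of 3.84-fold and 2.57-fold with no untreated counterpart. At the nuclear long non-coding RNA Neat1 the untreated fold was likewise the higher, by a wider margin. A kept peak at one end had 2.82-fold (11 fragments) in nigericin-treated cells against 8.31-fold (37 fragments) in untreated cells, and a nigericin-only peak of 2.36-fold lay inside the gene.

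A 10-base pattern, GAAANNGAAA, the core of the interferon-stimulated response element, was searched on both strands of the 300-base start windows. It occurred in 6 of 38 windows (15.8%) of the H3K27ac genes with 2 or more nigericin-only peaks, belonging to 5 genes: Aoah, Ifit1bl1 (2 windows), Ifit3, Irgm1 and Trim30d. The windows cover 28 of the 39 such genes, and those with no window include Gvin1, Nfkb1, Parp14 and Ccl4. It occurred in 0 of 38 windows of the genes with 2 or more untreated-only peaks, which cover 27 of 32 genes, in 3.46% of all windows and in 5.17% of windows with H3K27ac and no H3K27me3. In windows under a peak the pattern was in 3 of 110 for nigericin-only (2.73%), 4.20% for kept and 2.56% for untreated-only peaks. Outside H3K27me3 it was in 1 of 21 nigericin-only and 3 of 50 untreated-only windows. The genes with 2 or more peaks were selected by their own peak counts. A match is a description of letters, not a site.

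The strongest untreated-only peaks lay mostly inside H3K27me3, 65 of 67 at a −log10 q of 5 or more, with 44 of the 67 at gene ends. Hdgfl3, a growth-factor-related gene, had 6.59-fold (30 fragments, 20.2 to 42.8), Ebf3, a neuronal transcription factor, 6.28-fold (25 fragments), H1f10, a linker histone, 6.26-fold (32 fragments) and Col8a2, a collagen chain, 6.23-fold (26 fragments). Bsn, a presynaptic scaffold, had 6.07-fold and Fgf18, a growth factor, 5.89-fold. In gene bodies Sema6c, a semaphorin, had 6.38-fold (29 fragments) and Trim71, an RNA-binding regulator of early development, 6.32-fold (26 fragments). None of these overlapped a nigericin peak. Nigericin peaks were present elsewhere at some of the genes, such as Col8a2 (3.78-fold in its body).

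By list, peaks of all classes lay at long genes of other lineages. Of 65 neuronal and synaptic genes, 19 (29.2%) held a nigericin-only peak, 16 (24.6%) a kept nigericin peak and 41 (63.1%) an untreated-only peak. Of all protein-coding genes 6.23%, 3.75% and 12.3% did, so the neuronal share was above that of all genes in each class. Collagen and matrix genes had 8 of 51 with nigericin-only peaks (15.7%), 4 kept and 19 untreated-only (37.3%). Col27a1 had 5.35-fold with 23 fragments, and a single peak of 5.35-fold with 19 fragments served Col4a1 and Col4a2, which share a start region. Lymphoid genes had 3 of 34 nigericin-only, 3 kept and 7 untreated-only. These lists have long genes, with a median of 137 kb for neuronal and 106 kb for matrix genes against 17.3 kb for all protein-coding genes. Per Mb of gene, neuronal genes had 1.74 and matrix genes 1.40 nigericin-only peaks, against 1.51 over protein-coding genes. The figures for kept nigericin peaks were 1.85 and 0.935, against 1.19, and for untreated-only peaks 4.53 and 4.68, against 3.48.

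Among H3K27ac genes outside H3K27me3, untreated-only runs were fewer and other genes led. Ahnak, a giant scaffold protein gene, held 9 untreated-only peaks of 2.05-fold to 4.81-fold and no nigericin peak. Sfi1, a centrosomal gene, held 4 nigericin-only and 6 untreated-only peaks and no kept one, at folds of at most 2.16 and 2.13. Among the 32 such genes with 2 or more untreated-only peaks were Ptprc (CD45), Lcp1 (plastin) and Cd44, with 2 each at up to 2.94-fold. They were picked after the values were seen, and Cd44 also held 1 nigericin-only peak.

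At the 1589 kept pairs, each untreated peak with the nigericin peak it shared most bases with, the nigericin fold was a median of 0.911 times the untreated fold (quartiles 0.713 and 1.16) and was below it in 59.3% of pairs. The median was 0.869 at gene ends (711 pairs), 0.926 in gene bodies (616) and 1.01 in distal sequence (262). It was 0.898 inside H3K27me3 (1460 pairs) and 1.03 outside (129). Taking summit fragments over each list's modal background instead gave a median of 0.986. Summits were a median of 339 bp apart, and 35.7% were within 200 bp.

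Among pairs of 30 or more fragments, the 4 highest ratios, 5.26 to 3.52, were those on chromosome 7 at Gvin1, Gm8995 and Gm4070, outside H3K27me3. The next was Mir9-3hg, the host gene of the neural microRNA miR-9, with 4.82-fold against 2.10-fold (ratio 2.302). The lowest ratios were all at genes inside H3K27me3. Lbx1, a muscle precursor and spinal cord factor, had 2.68-fold (26 fragments) in nigericin-treated cells against 9.37-fold (48 fragments) in untreated cells, a ratio of 0.286 and the highest fold of the untreated list. Foxi3, an ectodermal forkhead factor, had 2.48-fold against 8.20-fold, Ttbk1, a brain kinase, 1.84-fold against 6.38-fold, and Ntn1, the axon guidance cue netrin-1, 1.87-fold against 6.02-fold. Summit fragments differed less than folds there (24 against 34 at Foxi3), with a higher local background in the nigericin list at these sites.

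Kept peaks were wider than single-list peaks, and wider in untreated cells. Median widths were 395 bp for nigericin-only, 740 bp for kept nigericin, 1079 bp for kept untreated and 408 bp for untreated-only peaks. Widths of 2 kb or more were reached by 9 (0.274%), 167 (9.45%), 416 (26.2%) and 61 (0.763%) of the classes in that order. Of peaks that wide, 94.9% of the nigericin list and 87.2% of the untreated list were kept, and of those under 500 bp 16.3% and 4.45%. Within kept pairs the nigericin peak was narrower in 63.4%, with a median width ratio of 0.794, which was 1.03 outside H3K27me3. A wider peak has more room to share 1 bp with the other list, so width enters the rule that makes the classes. Width also moves with strength, and at 8 to 12 fragments the medians were 393, 527.5, 566 and 397 bp.

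**Figure D4:**
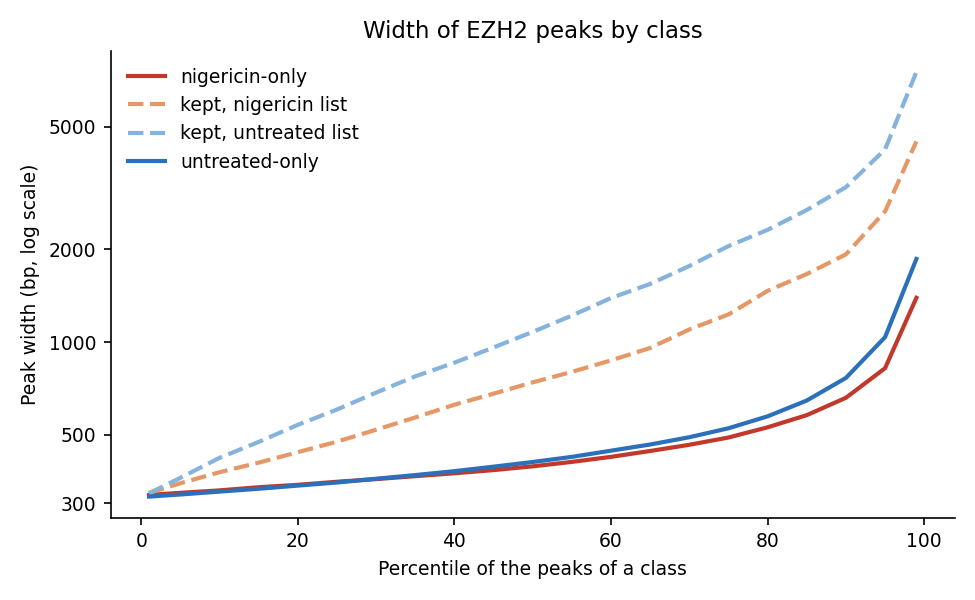
Peak width in bp (y axis, log scale) at each percentile of the peaks of a class (x axis). The solid lines of nigericin-only and untreated-only peaks run together at medians of 395 and 408 bp, and the dashed lines of the kept classes lie above them, with 740 bp in the nigericin list and 1079 bp in the untreated list.

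The widest members split by chromatin. Of the nigericin-only peaks, 3 exceeded 5 kb, at Gvin1 (8661 bp), Gm4070 (7914 bp) and Samd9l (6611 bp), and no untreated-only peak did. All 3 lay outside H3K27me3. The widest untreated-only peaks, at Prom1, a stem-cell surface protein (4556 bp), Slc4a4, a bicarbonate transporter (4320 bp), and Cacna1g, a calcium channel (3638 bp), lay inside it. Among the widest kept peaks of the nigericin list, those at Gvin1, Gm8995 and Gm4070 lay outside the mark and that at Skor1, a neural corepressor (8805 bp), lay inside it.

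Nigericin-only distal summits were a median of 13.2 kb from the nearest gene, kept ones 3.80 kb (nigericin list) and 4.19 kb (untreated list), and untreated-only ones 16.1 kb. More than 100 kb from any gene were 9.56%, 0.692%, 0.763% and 11.5%. The strongest kept distal peaks were 4.22 kb from Neurod2, a neuronal factor (6.99-fold, 28 fragments, against 6.00-fold, 22 fragments), and 7.06 kb from Cbx8 (6.46-fold against 4.59-fold). Among nigericin-only distal peaks the highest folds were 4.65, 90.8 kb from Bet1, and 4.49, 9.35 kb from Lrif1, where the peak was 3532 bp wide and outside H3K27me3. The strongest untreated-only distal peak, 16.6 kb from Evx1os at the end of the Hoxa cluster, had 5.08-fold with 18 fragments.

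All 20 chromosomes had fewer nigericin than untreated peaks, at ratios of 0.290 (X) to 0.650 (chromosome 11) with a median of 0.505. The share of nigericin peaks kept was 11.1% on X (4 of 36) and 21.9% to 47.4% on the autosomes, highest on chromosome 2. The share of untreated peaks kept was 3.23% on X (4 of 124) and 10.3% to 24.97% on the autosomes, again highest on chromosome 2. Chromosomes with more untreated peaks in H3K27me3 had more untreated peaks kept (Spearman rho 0.836, Pearson r 0.861 over 20 chromosomes, which share both libraries). The X chromosome was poorest in EZH2 peaks, with 0.211 nigericin and 0.726 untreated peaks per Mb against medians of 2.04 and 3.70, and it had 137.5 H3K27me3 peaks per Mb and the autosomes 13.7 to 43.1.

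**Figure D5:**
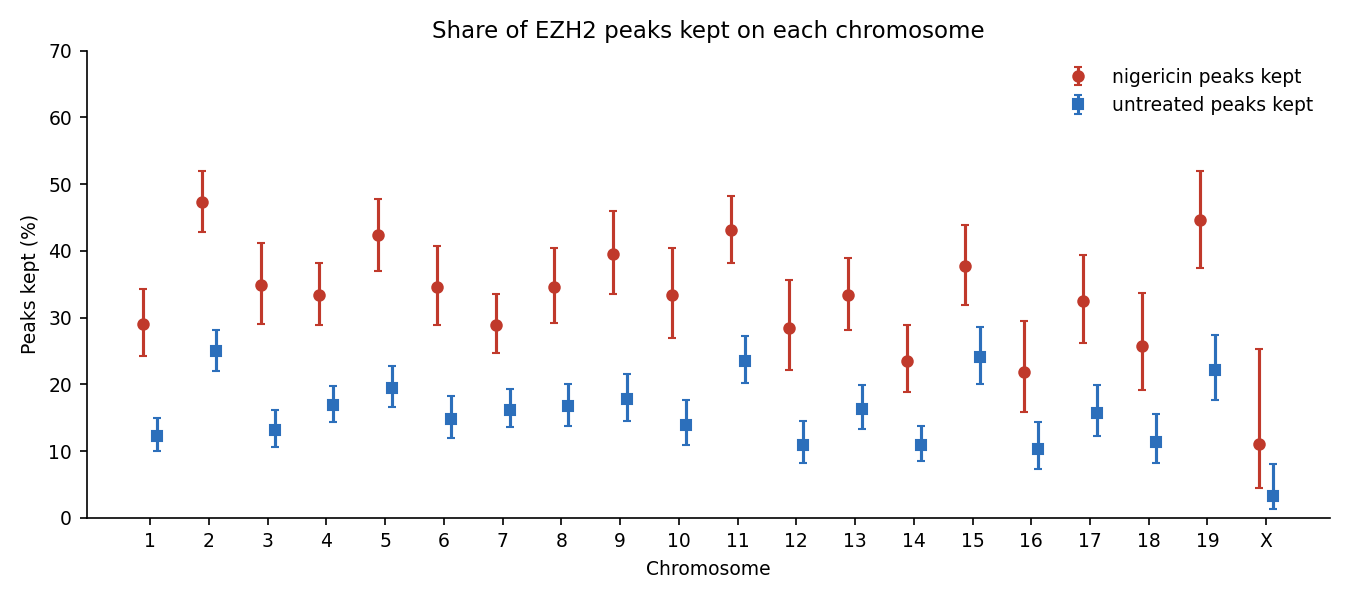
Percent of EZH2 peaks kept (y axis) on each chromosome (x axis), for nigericin peaks (circles) and untreated peaks (squares) with Wilson 95% intervals. Nigericin shares lie above untreated shares on every chromosome, both are highest on chromosome 2 (47.4% and 24.97%) and lowest on X (11.1% and 3.23%). Kept peaks of both lists are the same overlapping sites and the nigericin list is shorter on every chromosome, so the order of the 2 shares follows from list length.

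The balance of classes varied between single megabases, ranked here by their counts. The Hox clusters were mostly kept: the megabase starting at 102 Mb of chromosome 15 (Hoxc) held 5 nigericin-only, 33 kept nigericin and 14 untreated-only peaks, and that at 52 Mb of chromosome 6 (Hoxa) 5, 29 and 13. The megabase at 106 Mb of chromosome 7 with Gvin1 held 31 nigericin-only, 2 kept and 5 untreated-only peaks. That at 43 Mb of chromosome 14, with the eosinophil-associated ribonuclease genes Ear1 and Ear10, held 28, 5 and 18. That at 85 Mb of chromosome 1 with Sp100, Sp110 and Sp140, interferon-inducible nuclear body genes, held 25, 2 and 14. The next by nigericin-only count were richer in untreated-only peaks: 20 Mb of chromosome 8, with the beta-defensin gene Defb33, held 21, 12 and 32, and 12 Mb of chromosome 13, with Ryr2, held 18, 7 and 35. The megabase at 96 Mb of chromosome 11 (Hoxb) held 16, 24 and 11, and that at 35 Mb of chromosome 17, in the major histocompatibility complex, 15, 6 and 5. The megabase at 20 Mb of chromosome 13 with Aoah held 13, 0 and 3. The genes named for each megabase were picked after its values were seen. At 147 Mb of chromosome 4, a cluster of zinc-finger gene copies, both lists were dense with 38, 16 and 53. The 10 densest megabases of each class held 6.63% of nigericin-only peaks, 11.1% of kept nigericin peaks and 4.004% of untreated-only peaks.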

How the data were processed

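Chromatin immunoprecipitation with sequencing was done by the authors in mouse macrophages. The submitters' processing notes name MACS2, deepTools and the builds GRCm38 and mm10, and no source used here states parameters, read totals or how inputs were used. The deposited peak lists give for each peak a fold ratio over local background at the summit, its −log10 p-value and −log10 q-value, and a score, all the authors' own values, used here to describe, rank and filter peaks within a list. Fragments at each summit were recovered from fold and p (all nigericin peaks, all but 1 untreated peak). Peaks on chromosomes 1 to 19 and X were intersected with each other, with the other lists and with RefSeq genes and promoters of GRCm38.p6, using Python 3.11.15, numpy 2.4.6, pandas 2.3.3, scipy 1.17.1 and matplotlib 3.10.9. The overlap steps were tested on simulated data. Shares carry Wilson and fragments exact Poisson 95% intervals, which cover counting error only. With 1 library per side no test was made. For each class, the genes named are the 6 with the highest fold per place, the 5 widest peaks, the 5 strongest distal peaks, the extreme pairs and list members; others are said to be chosen after the values were seen, which holds also for the strongest peaks by q-value and the megabases. The members and the 12 gene lists were chosen with earlier results of these data known. A few named peaks that this rule selects are not reported here.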

Additional observations from a re-analysis of the deposited data

Results flagged for a closer look

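Peaks outside chromosomes 1 to 19 and X entered no comparison and are given as values only. On chromosome Y the nigericin list held 74 EZH2 peaks and the untreated list 190. On unplaced contigs and the mitochondrial genome the nigericin list held 68 and the untreated list 72. No control library sets a level for these peaks, and they were singled out because they lie in data the comparisons do not use.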

How the results depend on the processing

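No paired analysis was possible because each condition has 1 library. Percentages below are given for nigericin before untreated peaks (kept), and for nigericin-only, kept nigericin and untreated-only peaks (place, marks, widths). With a q-value of at most 0.05 in both lists, 56.9% and 24.3% were kept (chromosome medians 55.4% and 22.8%), gene ends held 28.5%, 45.6% and 45.6%, H3K27me3 64.1%, 96.7% and 83.3%, H3K27ac 2.76% (nigericin-only) and 0.611% (untreated-only), median widths were 650.5, 1264 and 880.0 bp, and 24.8% of nigericin-only peaks outside H3K27me3 lay in genes with H3K27ac. With a −log10 q of at least 5 in the counted list, 91.0% and 82.1% were kept (chromosome medians 100% and 85.7%), gene ends held 50% (8 peaks), 48.1% and 65.7%, H3K27me3 12.5%, 91.4% and 97.0%, H3K27ac 0.0% in both single-list classes, and widths were 820.0, 2251 and 1386 bp. With an overlap of 50% of the shorter peak, 30.1% and 14.0% were kept, H3K27me3 held 36.2% (nigericin-only) and 34.1% (untreated-only), and widths were 402 bp (nigericin-only) and 775 bp (kept). With lists of equal length, 30.7% and 26.7% were kept (untreated chromosome median 25.3%), gene ends held 16.04% (nigericin-only) and 22.6% (untreated-only), H3K27me3 35.3%, 94.2% and 43.3%, H3K27ac 1.83% of untreated-only peaks, and widths were 401 bp (nigericin-only) and 441 bp (untreated-only). Gene ends held 42.2%, 84.2% and 40.7% with a 5 kb window, 9.28%, 34.4% and 12.3% with protein-coding genes only and 17.4%, 54.6% and 20.5% by the whole peak. Counting a peak within 1 kb as kept gave 43.9% and 23.0% (chromosome medians 42.0% and 21.5%). At 8 to 12 fragments gene ends held 13.4%, 32.4% and 11.5%, and H3K27me3 88.8% of kept nigericin and 24.2% of untreated-only peaks. The median fold ratio was 0.849 for pairs of 30 or more fragments and 0.986 by fragments over the modal background. Kept exceeded nigericin-only peaks at gene ends in 8 of 9 settings, the exception being −log10 q of at least 5, where untreated-only peaks (65.7%) exceeded both, and in H3K27me3 in 6 of 6. Nigericin-only exceeded untreated-only peaks in H3K27ac in 5 of 6 settings (0.0% in both at −log10 q of at least 5) and in genes with H3K27ac in 4 of 4, all chosen after seeing the data. The cause of the shifts was not tested. Weak peaks, 1 library per side and unknown read totals limit every class named for its absence from a list.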

Other observations

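Over all strengths the p53 list of untreated cells and every SIRT1 list, wild-type or knockout, overlapped kept EZH2 peaks more often than single-list peaks. Peaks of p53 overlapped 1.76% of nigericin-only, 3.17% of kept nigericin, 3.46% of kept untreated and 2.20% of untreated-only peaks. For p53 the order reversed among peaks with a q-value of at most 0.05, at 5.26% (10 of 190), 2.83% (16 of 566), 2.60% (24 of 924) and 4.21% (34 of 807) in the same order of classes. SIRT1 peaks of the Ezh2 wild-type control overlapped 4.05%, 8.94%, 10.95% and 4.12% in the same order of classes. Those of the p53 wild-type control overlapped 3.32%, 8.60%, 12.02% and 3.37%. SIRT1 peaks of cells lacking Ezh2 overlapped 1.31%, 4.24%, 5.92% and 1.54%, and those of cells lacking p53 3.07%, 6.45%, 9.38% and 3.03%. The order was thus not limited to the wild-type lists. Kept peaks were also wider than single-list peaks, and overlap at matched width was not tested. At 8 to 12 fragments the shares for SIRT1 of the Ezh2 wild-type control were 3.97%, 5.50%, 6.09% and 2.96%.

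Along H3K27ac genes of at least 20 kb, nigericin-only summits outside H3K27me3 were spread over the length, with 44, 55, 42, 39 and 36 of 216 in 5 equal stretches from the start. Untreated-only summits gave 45, 71, 39, 57 and 46 of 258.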
